A study of Schizosaccharomyces pombe with 20 samples.

Results

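The genes described here carry the symbols used in fission yeast for amino acid synthesis. They are the 48 of 5007 measured genes of Schizosaccharomyces pombe whose name in the deposited table is arg, lys, his, leu, ilv, met, trp, aro, cys or pro followed only by digits. By prefix they comprise 10 arginine genes, 11 sulphur amino acid genes (met and cys), 8 aromatic genes (trp and aro), 6 genes each for lysine, histidine and the branched chain amino acids (leu and ilv), and 1 proline gene. The reference annotation gives 45 of them a product that belongs to amino acid synthesis or its cofactors. The other 3 are arg82, an inositol polyphosphate kinase, and trp1322 and trp663, both TRP-like ion channel proteins, and they were kept because the rule goes by name.

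RNA was compared between wild-type cells (strain PB1623, mat1-M smt-0) and leo1Δ cells (strain PB2423, mat1-M smt-0 leo1Δ), so both genotypes carry the smt-0 allele, which keeps the mating type stable. Leo1 is a subunit of Paf1C, a complex that accompanies RNA polymerase II during transcript elongation. Growing cells in minimal glutamate medium (PMG) were sampled as T0. Cells moved to that medium without nitrogen (PMG-N), in which they enter quiescence and stay in it, were sampled as T8, T24 and T48, named for the hours elapsed (8, 24 and 48), and after 2 weeks as T2w. Each of the 10 groups of genotype and time had 2 libraries of RNA depleted of ribosomal RNA, 20 in all, and the 2 libraries are named as biological duplicates. The leo1Δ strain derives from 1 deletion library strain that was backcrossed.

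The values are log2 fold changes of leo1Δ over wild type at each time, negative where leo1Δ was lower, with a false discovery rate (FDR) computed over all genes of the table. Where 5 values of a gene follow each other, they run from T0 to T2w. A gene is called where its FDR lay below 0.05. No values of single libraries were analysed, so depth is unknown and the spread of duplicates enters only through the deposited edgeR test. An approximate standard error was recovered for each fold change from its likelihood ratio, and intervals printed below are approximate 95% intervals built from it. Its median over the 48 genes lay between 0.32 and 0.323 log2 units at the 5 times. The deleted gene leo1 was called lower at every time, with log2 fold changes from -2.38 at T0 to -1.76 at T8. These leave 19.2% to 29.5% of the wild-type level for a deleted gene. Where this signal came from was not tested. Whether the deposited fold changes were shrunken towards 0 is not stated, so the sizes printed here may be understated. Fold changes in RNA from whole cultures are relative, so a lower level per cell and fewer cells that express a gene cannot be told apart. The paper reports that leo1Δ cells lost viability in long nitrogen starvation, while wild-type cells largely kept it. In its supplementary survival series, leo1Δ cells were already well below wild-type cells at 2 weeks. The cultures compared at T2w may therefore have differed in their share of living cells. That share is not known for the sequenced cultures, and its part in the values at T2w was not tested.

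Fission yeast makes all of its amino acids from central carbon compounds, ammonium and sulphate. Glutamate and glutamine carry nitrogen into every pathway, so these enzymes lie directly downstream of the nutrient that was withdrawn. In budding yeast, amino acid shortage is sensed by the kinase Gcn2 and relayed to biosynthetic genes by the general amino acid control. GATA factors there report on nitrogen source. During quiescence without nitrogen, cells live largely on amino acids recycled by autophagy.

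At the level of the whole group, few genes passed the test, and most fold changes lay below 0 at T48 and above 0 at T2w. Of the 48 genes, 8 were called at 1 or more times, in 13 of 240 pairs of gene and time. These are 16.7% of the genes and 5.42% of the pairs, close to the 18.0% of genes and 4.85% of pairs over the whole table. At T48, 40 of 48 log2 fold changes lay below 0, with a median of -0.50 and quartiles of -0.73 and -0.12. At T2w, 38 of 48 lay above 0, with a median of 0.47 and quartiles of 0.10 and 0.66. The median over all 5007 genes was -0.07 at T48 and 0.05 at T2w, and 54.1% of all genes lay below 0 at T48 and 55.0% above 0 at T2w. At the earlier times the median of the 48 genes was -0.16 (T0), 0.11 (T8) and -0.06 (T24), beside medians between -0.03 and -0.01 over all genes.

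**Figure D1:**
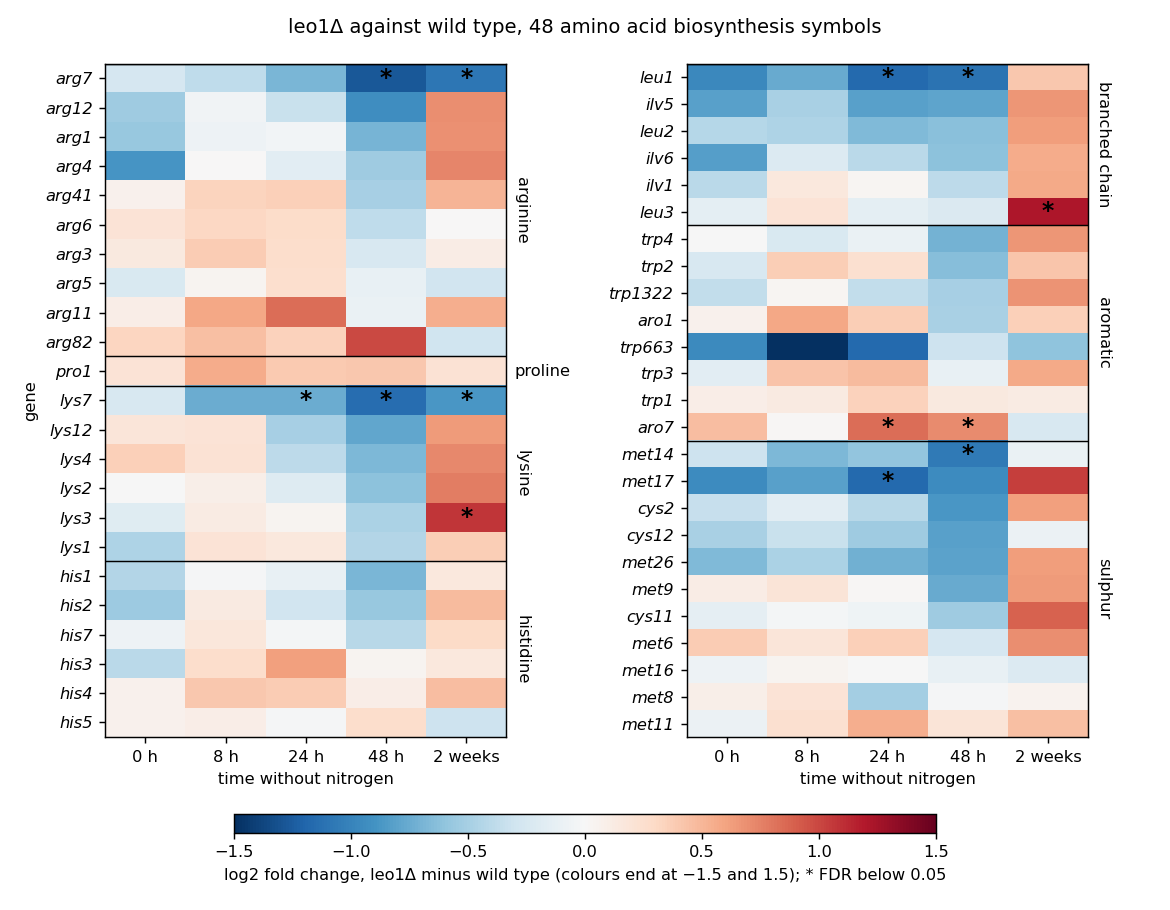
Log2 fold change of leo1Δ over wild type for each of the 48 genes (rows, grouped by pathway and ordered by the value at 48 h) at the 5 times (columns), with an asterisk where FDR lay below 0.05. Most rows are blue at 48 h and red at 2 weeks, and arg7 and lys7 are blue at both. The colours end at 1.5 in either direction, and trp663 at 8 h lies beyond that end at -2.33.

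The fold changes moved with the base composition and the expression level of the genes. The GC content of the 48 genes in the reference had a median of 39.7%, against 37.2% over all genes, and their mean expression was also higher, with a median log2 CPM per kilobase of 6.57 against 5.21. Over the 4978 genes matched to the reference, the log2 fold change had a Spearman correlation with GC content of -0.43 before starvation, -0.37 at T48 and 0.31 at T2w, and of 0.02 at 8 h and -0.01 at 24 h. Within the 48 genes it was -0.33 at 8 h and -0.41 at 24 h, and between -0.63 (before starvation) and 0.44 (T2w) at the others. With mean expression the correlation over all genes was -0.20 before starvation and again at T48, 0.25 at 8 h, 0.24 at 24 h and 0.39 at T2w. The points of these correlations share the same libraries. The genes were then put into 10 classes of equal size by GC content, and the median of all genes of its class was subtracted from each value. With GC content taken out in this way, the median of the 48 genes was -0.14 at T48 and 0.26 at T2w. With 10 classes of mean expression in place of GC content, it was -0.22 at T48 and 0.30 at T2w. With 5 classes of GC content crossed with 5 of mean expression, it was -0.09 at T48 and 0.22 at T2w. The part of base composition and expression level in these medians was not tested further.

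**Figure D2:**
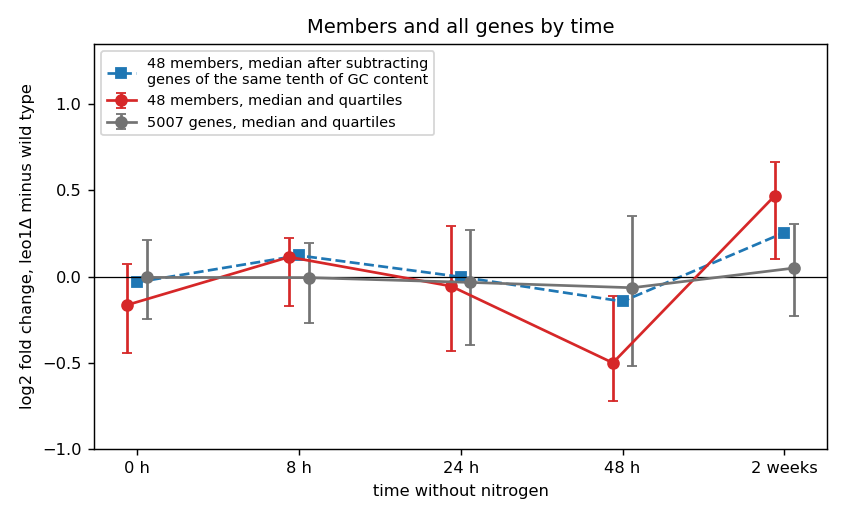
Median and quartiles of the log2 fold change of leo1Δ over wild type at each time for the 48 genes (red circles) and all 5007 genes (grey circles), and the median of the 48 genes after subtracting the median of genes in the same class of GC content (blue squares). The red median goes from -0.50 at 48 h to 0.47 at 2 weeks, and the blue one from -0.14 to 0.26.

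Before nitrogen was withdrawn, and 8 h after, no member was called. At T0, 0.32% of all genes were called lower and 0.16% higher, and at T8 1.34% were called lower and 0.0999% higher. At an unadjusted p under 0.05, 5 of the 48 genes (10.4%) lay lower and 0 higher at T0, and again 5 lower and 0 higher at T8. Over all genes this threshold was passed by 5.17% lower and 3.40% higher at T0, and by 6.85% lower and 2.68% higher at T8. The lowest log2 fold change at T0 was -0.96, for leu1, and the highest 0.46, for aro7, and neither was called.

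At T24, 3 genes were called lower (6.25% of the 48, against 3.77% of all genes) and 1 higher (2.08%, against 1.28%). The genes called lower were leu1, met17 and lys7, and the gene called higher was aro7. At T48, 4 were called lower (8.33%, against 8.21%) and 1 higher (2.08%, against 5.57%). They were lys7, met14, arg7 and leu1 on the lower side and aro7 on the higher side. At T2w, lys7 and arg7 were called lower (4.17%, against 2.3% of all genes) and lys3 and leu3 were called higher (4.17%, against 1.2%). At T48 the share of the group called lower was thus close to that of all genes, although its median was not. The 3 lower calls at T24 had FDR values between 0.0438 and 0.0487, and none was kept after centring on the median of all genes or with GC content taken out. With GC content taken out, T48 kept 3 genes called lower and none called higher, and at T2w arg7 and lys7 were still called lower while no gene was called higher.

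**Figure D3:**
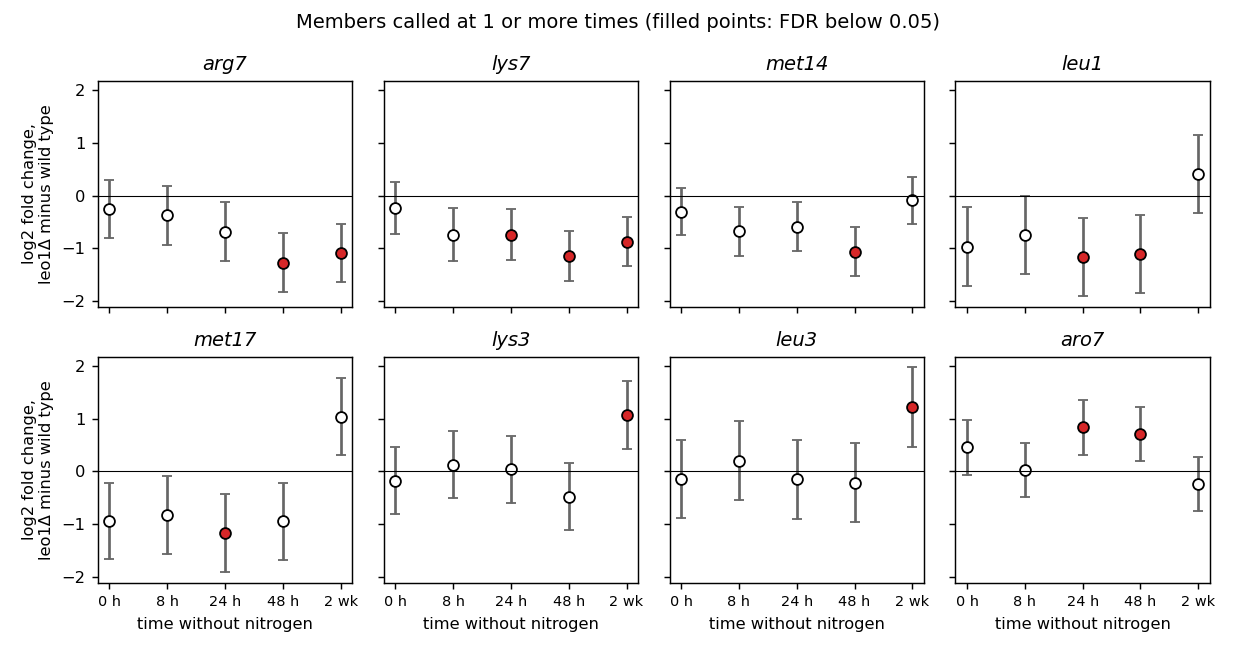
Log2 fold change of leo1Δ over wild type at the 5 times for the 8 genes called at 1 or more times, with approximate 95% intervals as bars and filled points where FDR lay below 0.05. arg7 and lys7 are called lower at both 48 h and 2 weeks, and lys3 and leu3 are called higher at 2 weeks alone.

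Arginine is built from glutamate through acetylated intermediates to ornithine, which takes up carbamoyl phosphate and then aspartate before argininosuccinate is split. The enzyme of that last cut, argininosuccinate lyase, is the annotated product of both arg7 and arg41. The log2 fold change of arg7 was -0.26, -0.38, -0.68, -1.27 and -1.08 in order of time. It was called at T48, where leo1Δ had 0.416 of the wild-type level (interval -1.83 to -0.71, FDR 0.000424), and at T2w, with 0.473 of it (interval -1.63 to -0.53, FDR 0.00861). It is the lowest of the 48 genes at both of these times. The second lyase gene, arg41, had 0.06, 0.33, 0.36, -0.50 and 0.52 in the same order and was never called. At T2w the approximate intervals of arg7 and arg41 did not overlap, since that of arg41 ran from -0.11 to 1.14. The 2 genes are read from the same libraries, and the difference between them was not tested. In the reference, 100% of the exon bases of arg41 are overlapped by SPBC1539.02 on the opposite strand, which had -0.45 at T2w. Annotated genes that were not measured overlap 72.4% of those of arg7. The use of strand in counting is not stated. The 2 predicted proteins have 461 and 460 residues and are 73.0% identical over 459 aligned positions. None of the 50-base windows of either gene occurs elsewhere in the reference genome. Their levels differ, with a mean log2 CPM per kilobase of 4.04 for arg7 and 7.65 for arg41.

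No other arginine gene was called. At T48, arg12 (argininosuccinate synthase) had -0.93 and arg11, the enzyme that phosphorylates and then reduces acetylglutamate, -0.09. The only arginine symbol above 0 at T48 was arg82, the inositol polyphosphate kinase, at 0.99 (FDR 0.08). At T2w the 10 genes ran from -1.08 for arg7 to 0.74 for arg4, an arginine-specific carbamoyl-phosphate synthase, with a median of 0.32. The partner gene arg5 had -0.28 at T2w, and neither subunit was called. The proline gene pro1, a gamma-glutamyl phosphate reductase, lay between 0.20 and 0.56 at all 5 times, and its smallest FDR was 0.363, at T48.

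Lysine is made in fungi from 2-oxoglutarate through homocitrate and aminoadipate. The lysine genes gave calls in opposite directions at T2w. The product of lys7 is the phosphopantetheinyl transferase that puts the prosthetic group on aminoadipate reductase, and lys1 encodes that reductase. The log2 fold change of lys7 was -0.24, -0.74, -0.74, -1.15 and -0.87 in order of time. It was called lower at T24 (FDR 0.0487), T48 (0.452 of wild type, FDR 0.000133) and T2w (0.547 of wild type, FDR 0.0156), more often than any other of the 48 genes. At T8 its approximate interval ran from -1.24 to -0.24 without a call. Its substrate gene lys1 had -0.46, 0.21, 0.15, -0.44 and 0.37 in order of time and was never called.

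The gene lys3 encodes a saccharopine dehydrogenase, an enzyme of the end of the pathway. Its log2 fold change was -0.18, 0.13, 0.04, -0.47 and 1.07 in order of time. At T2w it was called higher, at 2.10 times the wild-type level (interval 0.43 to 1.71, FDR 0.0377), a call that was lost with GC content taken out (1.02, adjusted p = 0.056). Apart from lys7, the T2w values of the lysine genes lay between 0.37 (lys1) and 1.07 (lys3). All 6 lysine genes lay below 0 at T48, from -1.15 to -0.44. Among the 7 symbol groups the lysine genes had the highest median at T2w, 0.68, and it was 0.44 after GC content was taken out.

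Leucine, isoleucine and valine share acetolactate synthase and the reductoisomerase, and leucine then has 3 steps of its own, by leu3, leu2 and leu1 in that order. All 6 branched chain genes lay below 0 at T0 and at T48 and above 0 at T2w. Their median log2 fold change was -0.62, -0.33, -0.53, -0.62 and 0.60 in order of time. The gene of the third leucine step, leu1 (3-isopropylmalate dehydrogenase), had -0.96, -0.75, -1.17, -1.11 and 0.41. It was called lower at T24 (0.446 of wild type, interval -1.91 to -0.42, FDR 0.0438) and at T48 (0.464 of wild type, interval -1.85 to -0.37, FDR 0.0316). The gene of the first step, leu3 (2-isopropylmalate synthase), had -0.14, 0.20, -0.15, -0.21 and 1.21. It was called higher at T2w, at 2.32 times wild type (interval 0.46 to 1.97, FDR 0.0475), and is the highest of the 48 genes there. The gene between them, leu2 (3-isopropylmalate dehydratase), had -0.63 at T48 and 0.63 at T2w without a call.

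The upstream genes had like values without calls. At T48 the reductoisomerase gene ilv5 had -0.79, and the regulatory and catalytic subunits of acetolactate synthase, ilv6 and ilv1, had -0.61 and -0.40. At T2w these 3 genes lay between 0.55 and 0.67. The branched chain genes have the highest GC content of the 7 symbol groups, with a median of 41.6%, and a median log2 CPM per kilobase of 7.93, close to the 7.94 of the arginine genes. After GC content was taken out, their median was -0.18 at T0, -0.02 at T48 and 0.32 at T2w. In that setting leu1 had -0.42 at T48 (adjusted p = 0.50) and leu3 had 1.01 at T2w (adjusted p = 0.14), so neither was called.

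Sulphate is activated, phosphorylated and reduced to sulphide, which enters homocysteine and cysteine. The product of met14, adenylyl-sulfate kinase, does the phosphorylation. The log2 fold change of met14 was -0.31, -0.68, -0.59, -1.06 and -0.09 in order of time. It was called lower at T48 alone, at 0.480 of wild type (interval -1.52 to -0.60, FDR 0.000312). The gene of the next step, met16 (phosphoadenosine phosphosulfate reductase), lay between -0.20 and 0.04 at all 5 times. Of the exon bases of met14 in the reference, 91.9% are overlapped by SPAC1782.12c on the opposite strand, which itself had -0.43 at T48. The use of strand in counting is not stated, so whether reads of the 2 genes were kept apart is unknown.

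The gene met17 encodes homocysteine synthase, which joins sulphide to acetylhomoserine. Its log2 fold change was -0.94, -0.81, -1.16, -0.94 and 1.03 in order of time. It was called lower at T24 (0.447 of wild type, interval -1.90 to -0.42, FDR 0.0438) and at no other time, with FDR 0.068 at T48 and 0.10 at T2w. At T24 it was not called once GC content was taken out (adjusted p = 0.22). Over the 11 sulphur genes the median was -0.76 at T48 and 0.61 at T2w, and 10 of them lay below 0 at T48. Both genes annotated as homoserine O-acetyltransferase, cys2 and met6, had positive values at T2w, 0.61 and 0.70. At T48 they had -0.87 and -0.25, and their proteins are only 31.1% identical. The cysteine synthase gene cys11 had 0.89 at T2w, while the gene of a related protein, cys12, had -0.09. Neither was called. The pair of methylenetetrahydrofolate reductase genes had 0.64 (met9) and 0.45 (met11) at T2w and -0.76 and 0.19 at T48.

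The shikimate route makes chorismate, from which the tryptophan branch and the branch to phenylalanine and tyrosine part. The only gene called higher before T2w was aro7, which encodes chorismate mutase, the first enzyme of the phenylalanine and tyrosine branch. Its log2 fold change was 0.46, 0.02, 0.83, 0.71 and -0.24 in order of time. It was called at T24 (1.78 times wild type, interval 0.32 to 1.34, FDR 0.0361) and at T48 (1.64 times wild type, interval 0.21 to 1.22, FDR 0.0458). Its GC content of 34.8% is the lowest of the 45 genes with an amino acid product. After GC content was taken out, its value was 0.92 at T24 (adjusted p = 0.015), still called. At T48 it was 0.53 (adjusted p = 0.17), no longer called.

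The first enzyme of the tryptophan branch has its subunits encoded by trp3 and trp1, which had -0.12 and 0.15 at T48 and 0.56 and 0.13 at T2w. Of genes that act in later steps, trp4 and trp2 had -0.71 and -0.64 at T48 and 0.66 and 0.41 at T2w. The gene aro1, for a multifunctional protein that covers most of the route to chorismate, had -0.49 and 0.36 at these times. None of these 5 was called. Of the ion channel symbols, trp663 had the lowest value of the whole group, -2.33 at T8 (FDR 0.30), at a mean log2 CPM of 1.63.

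The histidine genes gave no call at any time and had, of the groups with more than 1 gene, the medians closest to 0 at T48 and T2w, -0.18 and 0.23. The smallest unadjusted p was that of his1 (ATP phosphoribosyltransferase, the first step) at T48, with a log2 fold change of -0.68 (interval -1.34 to -0.03, FDR 0.141). The values at T48 ran from -0.68 for his1 to 0.26 for his5, the imidazoleglycerol-phosphate dehydratase gene. At T2w, his5 was the only one of the 6 below 0, at -0.31.

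Whether the fold change of a gene itself differed between times was tested with the approximate standard errors, since a call at one time and not at another does not show it. Between T0 and T48 no member differed at an adjusted p under 0.05. At this adjusted threshold 1.22% of all genes were lower and 0.12% higher at T48. At an unadjusted p under 0.05, 5 members (10.4%) lay lower at T48 and 0 higher, beside 7.69% and 4.59% of all genes. Between T48 and T2w, 3 members had a higher log2 fold change at T2w, beside 1.62% of all genes, and none a lower one, beside 0.539% of all genes. They were met17, by 1.97 (interval 0.94 to 3.004, adjusted p = 0.019), lys3, by 1.54 (interval 0.65 to 2.44, adjusted p = 0.040), and lys2, the homoaconitate hydratase gene, by 1.39 (interval 0.58 to 2.20, adjusted p = 0.040). None of these 3 was called once GC content was taken out, when the shifts were 0.96, 1.47 and 0.38. At an unadjusted p under 0.05, 25 members had a higher value at T2w and 2 a lower one, beside 14.0% and 6.51% of all genes. These unadjusted counts were made without taking out GC content.

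The shift from T48 to T2w was upward in 40 of the 48 genes and in 52.9% of all genes. Its median was 0.96 over the 48 genes and 0.05 over all genes. In 33 of the 48 genes the log2 fold change lay below 0 at T48 and above 0 at T2w, a sequence found in 29.1% of all genes. The 48 genes are read from the same libraries, so they are not independent observations of the shift. The genes arg7 and lys7 lay below 0 at both times, with -1.27 and -1.08 and with -1.15 and -0.87.

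**Figure D4:**
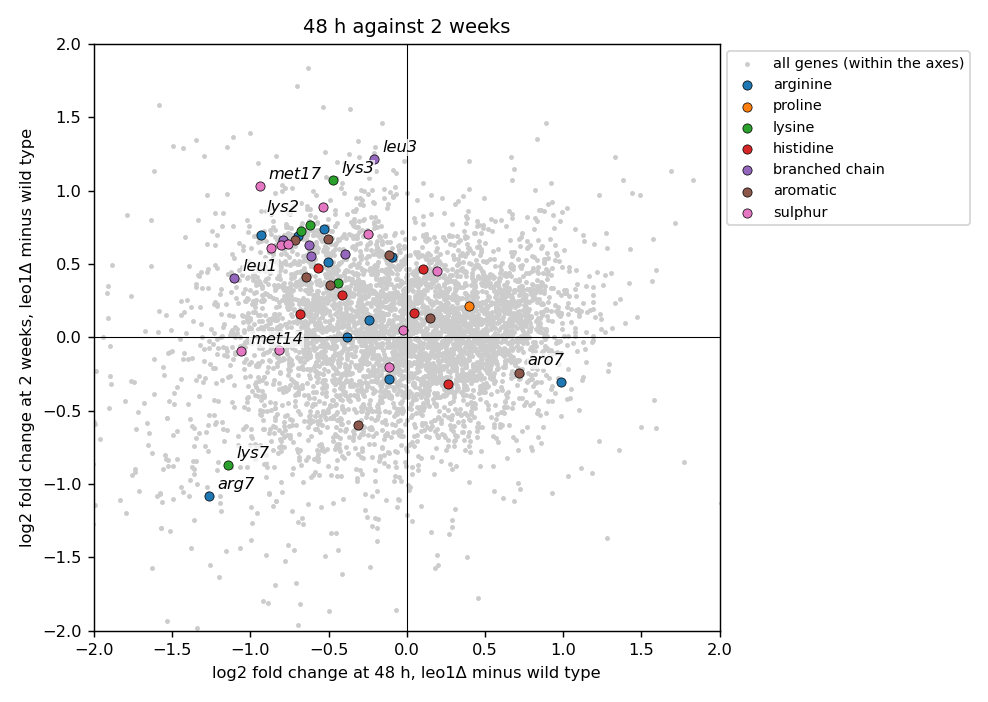
Log2 fold change of leo1Δ over wild type at 48 h (horizontal axis) and 2 weeks (vertical axis) for the 48 genes, coloured by pathway, over all genes that fall within the axes in grey. The 33 genes in the upper left field lay below 0 at 48 h and above 0 at 2 weeks, and arg7 and lys7 lie low on both axes.

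Genes of other amino acid pathways and of nitrogen assimilation, outside the symbol rule, gave a like picture. Of 26 such genes listed, 23 were in the table. At T48, 19 of the 23 lay below 0, with a median of -0.51. There 2 were called lower (8.70%, close to the 8.21% of all genes) and 0 higher (against 5.57%). The 2 were ser3, the first enzyme of serine synthesis from glycolysis (-0.93, FDR 0.048), and sua1, the sulfate adenylyltransferase that acts just before met14 (-1.13, FDR 0.015). At T2w, 21 lay above 0, with a median of 0.73, and 0 were called lower (against 2.3% of all genes) and 2 higher (8.70%, against 1.2%). These were hom3 and hom2, aspartate kinase and aspartate semialdehyde dehydrogenase, the first 2 enzymes on the way to threonine and methionine (0.93, FDR 0.031, and 1.09, FDR 0.024). After GC content was taken out, the median of the 23 was -0.15 at T48 and 0.42 at T2w. None was called at T0, T8 or T24, where at most 3.77% of all genes were called lower and at most 1.28% higher. The gene gdh1, NADP-specific glutamate dehydrogenase, which fixes ammonium, had -0.76 at T48 and 0.84 at T2w without a call.

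Of 9 genes of the general amino acid control and of GATA regulation, all in the table, 3 were called at some time, beside 18.0% of all genes. The eIF2 alpha kinase gene gcn2 was called higher at T48 (0.65, FDR 0.041), and hri1, the gene of another eIF2 alpha kinase, was called lower there (-0.75, FDR 0.014). The gene gcn20, a partner of Gcn1 in the control of Gcn2 in budding yeast, was called higher at T24 (0.98, FDR 0.00142). The GATA factor genes fil1 and gaf1 had -0.51 and -0.90 at T48 and were not called. The median of the 9 was -0.51 at T48 and 0.20 at T2w.

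In the reference sequence, promoters (250 bases before to 50 after the annotated start) were searched on both strands for 3 short motifs. The letters GATAAG, of the kind bound by GATA factors, were found for 10 of the 48 genes (20.8%), arg7 and arg41 among them, and for 11.6% of 5123 protein-coding promoters. The letters TGACTC, of the kind bound by Gcn4 in budding yeast, were found for 2 (4.17%), leu3 and his7, against 6.95%. The letters CACGTG were found for 1, ilv5 (2.08%, against 1.48%). A match of letters does not show that a factor binds.

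Overlapping genes bear on several values. In 8 of the 48 genes, over 90% of the exon bases in the reference are overlapped on the opposite strand by 1 other measured gene. They are arg41, his3, his4, lys1, lys2, met14, trp3 and trp663. Of the called genes other than met14, no measured gene overlaps arg7, leu1, leu3 or met17, and the measured neighbours of lys3, aro7 and lys7 overlap 11.0%, 4.06% and 3.28% of their bases. With annotated genes that were not measured included, the overlapped share of exon bases is larger for 4 called genes. It is 92.1% for leu1, 82.3% for lys7, 72.4% for arg7 and 47.1% for lys3, and 0 for leu3 and met17. The effect of these overlaps on the counts was not tested. The neighbour of lys7, nuc2, lies on the same strand and had 1.09 at T48, opposite in sign to lys7. The lys2 shift carries the overlap with wdr70, which had 0.39 at T48 and 0.05 at T2w. The deposited length of arg7 exceeds that of its reference exons by 448 bases, so the 2 annotations differ there.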

How the data were processed

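RNA of 20 samples was depleted of ribosomal RNA, made into ScriptSeq libraries and read as single 50-base ends. The authors aligned reads with Bowtie2 to ASM294v2, counted them per gene with featureCounts and compared genotypes at each time with edgeR. Per the study, genes of very low or no expression had been removed by the authors, at a level not stated. It also reports that aligned data were scaled by read number and that identical reads were discarded. Whether that scaling or discarding entered the gene comparison, and the use of strand in counting, are not stated in the sources used here. Per gene and time, the deposited table holds the authors' log2 fold change with its likelihood ratio (a score), p-value and FDR, beside a mean log2 CPM and a gene length. Of 5008 entries, 1 names no gene and was left out. It holds 10.3% of the counts by its mean CPM. No column was mapped to a library, so library depth and duplicate spread are unknown, and the precision of values rests on the authors' edgeR test of duplicates. That the libraries come from separate cultures rests on the design text. P-values equal the chi-square tail of the deposited ratio within 7.66e-15.

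The authors' fold changes and FDR values were used as deposited, at an FDR of 0.05, with no new test per gene. The approximate standard error was the size of the log2 fold change over the square root of the likelihood ratio. Where the ratio was under 0.001 (5 values of members), the median over the other times was taken. Differences between T48 and T0, and between T2w and T48, were tested by a two-sided normal test with Benjamini-Hochberg adjustment over all genes. The code was run on simulated data drawn with normal errors of these same sizes. That run cannot show whether the approximate standard errors or the normal shape hold for the deposited values. Names, products, GC content, overlaps and motifs came from ASM294v3, which is not the authors' assembly, so no coordinates or sequences are given (4978 genes and all 48 members matched by identifier). Alternatives were FDR thresholds of 0.01 and 0.1, leaving out the 25% of genes with the lowest expression, centring, subtraction of class medians (10 classes) by GC content or expression, and members with an amino acid product only. The text names every member called at any time, the member of smallest p in a pathway with none, and members that bound a range or share a step or complex with a named one. Other members, and genes of other lists, were named as examples after their values were seen. The members and lists were chosen with earlier results of these data known. Analyses used Python 3.11.15, pandas 2.3.3, scipy 1.17.1 and biopython 1.88.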

Additional observations from a re-analysis of the deposited data

Results flagged for a closer look

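In 3 genes the effect of leo1 deletion differed between 48 h and 2 weeks by the test of the difference itself. The log2 fold change of met17 was higher at T2w by 1.97, that of lys3 by 1.54 and that of lys2 by 1.39. In each the value lay below 0 at T48 and above 0 at T2w, and of the 6 single values only that of lys3 at T2w was called. Each lost the call after GC content was taken out, with adjusted p = 0.38 (met17), 0.059 (lys3) and 0.72 (lys2). The table holds no values per library, so no test for a library that stands apart was run.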

How the results depend on the processing

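Counts of called members rest on few genes and moved with most settings. At an FDR of 0.01, T24 had 0 lower and 0 higher, T48 had 0 higher, and T2w had 1 lower and 0 higher, beside 1.90%, 0.399%, 1.52%, 1.08% and 0.280% of all genes. At 0.1, T48 had 9 lower (18.8%, against 12.7% of all genes) and 2 higher (4.17%, against 9.43%). Without the 25% of genes of lowest expression, which hold 4 members, T24 had 0 lower and T2w 1 lower and 1 higher, beside 2.56%, 1.30% and 1.04% of the genes left. Centring on the median of all genes left 0 lower at T24 (3.50% of all genes), 1 higher at T2w (0.919%) and 1 member, met17, that differed between T48 and T2w. Subtraction by GC content left 0 lower at T24 (3.07% of all genes), 0 higher at T48 (5.46%) and 0 higher at T2w (0.603%). It moved the median at T48 to -0.14 and left 1 member that differed between T48 and T2w, his5, which was lower at T2w by 1.07. Alternatives by expression, and those of the differences by GC content, were chosen after seeing the data. Subtraction by mean expression left 0 higher at T24 (0.939% of all genes) and 0 higher at T2w (0.739%), and the members that differed between T48 and T2w were then met9 and trp4. Subtraction by GC content and expression together moved the median at T48 to -0.094. No called gene changed sign under these settings. The calls of lys7, met14 and arg7 at T48 and of arg7 at T2w held under each setting in which the gene was tested. No paired analysis was possible because the table holds no values per library. For the same reason, leaving out a library, another count test and no filter on low counts were not run. Depth per library is unknown, so no limit from depth can be given.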

Other observations

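The reference gives 11 further genes a symbol that matches the name rule, although the deposited table names them by systematic identifier only. They were added after the values of the 48 genes were seen. Of these, 10 were called at no time, so 9.09% were called at some time, beside 18.0% of all genes. The other, met1, a uroporphyrin methyltransferase needed for the siroheme of sulfite reductase, was called lower at T48 (-0.80, FDR 0.032) and higher at T2w (1.04, FDR 0.010). The flavoprotein subunit gene of sulfite reductase, met10, had -0.55 and 0.69 at these times. Completing the branched chain route, ilv3 (dihydroxy-acid dehydratase) had -0.88 at T48 and 0.58 at T2w. The second saccharopine dehydrogenase gene, lys9, had -0.34 and 0.79. The proline genes pro2 and pro3 had -0.62 and -0.07 at T2w. Over the 11 genes the median was -0.33 at T48 and -0.07 at T2w, where 6 lay below 0 and 5 above. The 11 genes include leu5, a coenzyme A transporter (-0.19 at T2w), and met7, a putative folylpolyglutamate synthase (-0.49 at T2w). With these genes included, a median above 0 at T2w was not found in this smaller group. The median was not computed without them.

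Breakdown of arginine and proline returns nitrogen to glutamate. Of 6 genes listed, 5 were in the table, and all 5 lay below 0 at T48, with a median of -0.39. None was called there, beside 8.21% of all genes called lower and 5.57% higher. At T2w the median was 0.62, and the arginase gene aru1 was called higher (0.86, FDR 0.012). This is 20% of the 5, beside 1.2% of all genes. The second arginase gene, car1, had 0.65 and was not called. After GC content was taken out, the median of the 5 was 0.16 at T48 and 0.30 at T2w.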
